A study of Homo sapiens with 11 samples.

Results

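The genes described here encode 8 metabolic enzymes that are typical of the kidney proximal tubule, FBP1, G6PC, GATM, AGXT2, MIOX, HAO2, DDC and ASS1. They were chosen by name, and all 8 were found among the 19645 protein-coding genes shared by the RNA-seq values and the hg19 (GRCh37) gene annotation, in which G6PC is named G6PC1. HK2 is an immortalised line of human proximal tubule epithelial cells, grown here in a single condition in DMEM-F12 medium with fetal bovine serum, antibiotics and DMSO. ChIP-seq was done in 2 replicates for each of 3 histone marks: the promoter mark H3K4me3, the acetyl mark H3K27ac of active regulatory elements, and H3K27me3, a mark of chromatin repressed by Polycomb. RNA depleted of rRNA was sequenced in 2 libraries. Of the 11 samples of the series, 8 were used, and those of input DNA and of HiChIP were not.

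The proximal tubule reabsorbs most of the filtered solutes and is also a metabolic organ. Its cells make glucose from lactate and amino acids, a path that ends with fructose-1,6-bisphosphatase (FBP1) and glucose-6-phosphatase (G6PC), and they make arginine from citrulline, for which argininosuccinate synthase (ASS1) is required. They also carry out the first step of creatine synthesis (GATM), break down myo-inositol (MIOX), oxidise 2-hydroxy acids (HAO2), transaminate glyoxylate and methylarginines (AGXT2) and make dopamine from L-DOPA (DDC). All of these are background roles, and no enzyme activity or protein was measured.

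Of the 8 genes, 3 reached an FPKM of 1 in each library (ASS1, MIOX and GATM), against 58.8% of all protein-coding genes. FPKM is the authors' value for fragments relative to transcript length and library size, summed here over the transcripts of a gene, so levels of different genes can be set side by side. ASS1 had an FPKM of 19.3 in library 1 and 17.7 in library 2. MIOX had 11.2 and 12.3, and GATM had 1.91 and 2. In this order, each of the 3 genes was separated from the next by more than the spread between libraries, with means of 18.5 ± 1.16, 11.8 ± 0.759 and 1.96 ± 0.0666 (SD, n = 2). ASS1 was above 81.0% of protein-coding genes and MIOX above 71.8%, while GATM was above 44.8%.

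The other 5 genes were at or close to 0. DDC had an FPKM of 0.128 and 0.0266 in libraries 1 and 2, and AGXT2 had 0.0559 and 0.0226. FBP1 had 0.0335 in library 1 and was listed at 0 in library 2, whereas HAO2 was listed at 0 in library 1 and had 0.032 in library 2. G6PC was listed at 0 in both libraries, as were 19.6% of protein-coding genes. In order of the mean, none of these 5 genes was separated from the next by more than the spread between libraries. Their values rest on very few reads: coverage multiplied by transcript length gave 283 aligned bases for FBP1 in library 1, 300 for HAO2 in library 2, and 1479 and 300 for DDC, out of 4.54 and 4.42 Gb over all transcripts. For ASS1 the same measure gave 165947 and 148627 bases. Over the 8 genes, the median of log2(mean FPKM + 1) was 0.08, and over all protein-coding genes it was 2.11.

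**Figure D1:**
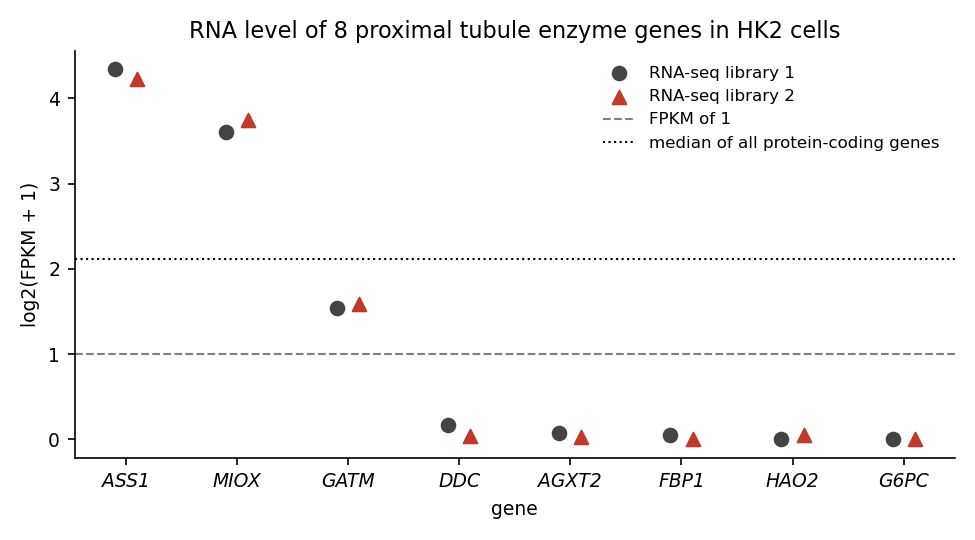
RNA level of each gene as log2(FPKM + 1), with 1 point per RNA-seq library, in order of the mean. ASS1 and MIOX lie above the median of all protein-coding genes (dotted line, 2.11), GATM lies between it and an FPKM of 1 (dashed line), and the other 5 genes lie near 0.

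At start sites, H3K4me3 peaks were present in both replicates for 4 of the 8 genes (FBP1, GATM, MIOX and ASS1), against 70.3% of protein-coding genes. A peak was counted when it overlapped the 1 kb on either side of any annotated start site. H3K27ac peaks were present in both replicates for 3 genes (GATM, AGXT2 and MIOX; background 55%), and H3K27me3 peaks for 2 genes (FBP1 and ASS1; background 11.4%). H3K4me3 and H3K27ac were both present for 2 genes (GATM and MIOX; 53.5% of all), and H3K4me3 and H3K27me3 for another 2 (ASS1 and FBP1; 7.02%). AGXT2 was the 1 gene with H3K27ac in both replicates and H3K4me3 in neither, a class that held 0.606% of protein-coding genes. G6PC was the 1 gene with no peak of any mark there in any of the 6 lists (15.1%). DDC and HAO2 had a peak at an internal start site in a single replicate and none at their main start sites. With 8 genes chosen by name, these shares are a description and were not tested.

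**Figure D2:**
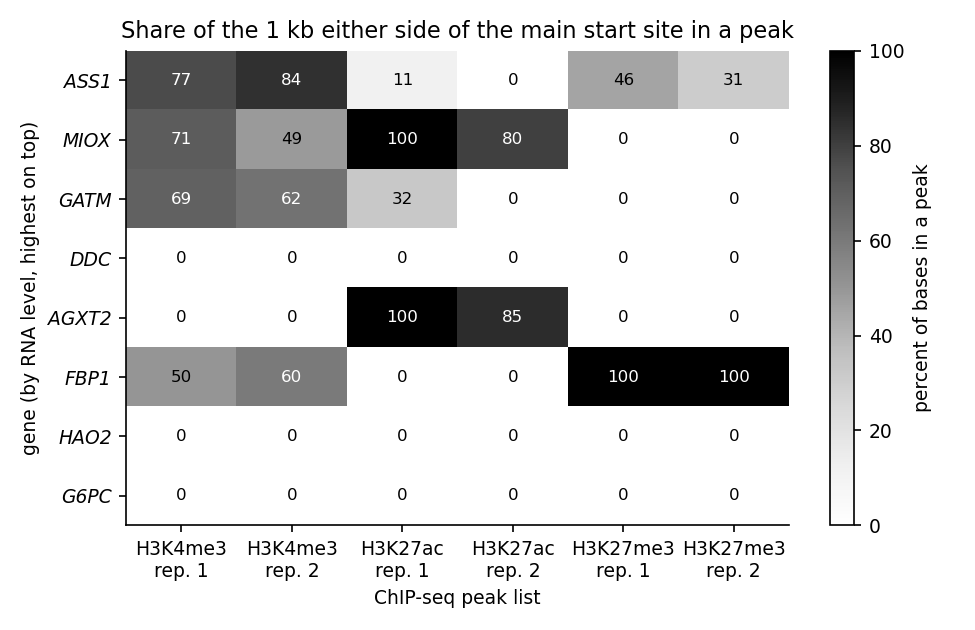
Percent of the bases within 1 kb of the main start site (the canonical transcript) that lie in a peak, for each gene and each of the 6 peak lists (3 marks, 2 replicates each). ASS1 and FBP1 have H3K4me3 and H3K27me3 in both replicates, MIOX has H3K4me3 and H3K27ac, AGXT2 has H3K27ac without H3K4me3, and DDC, HAO2 and G6PC have no peak in this window.

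ASS1, which joins citrulline and aspartate in the rate-limiting step of arginine synthesis, had the highest RNA level of the 8 genes together with H3K27me3 at its start site. The gene (ENSG00000130707) lies on the plus strand of hg19 at chr9:133320348-133376661. H3K4me3 peaks spanned the main start site at chr9:133319814-133321907 in replicate 1 and chr9:133319669-133321757 in replicate 2. H3K27me3 peaks lay at chr9:133319568-133320482 and chr9:133319969-133320580, and so ended 134 and 232 bp into the gene, while the H3K4me3 peaks reached 1559 and 1409 bp into it. The H3K27me3 peaks were 915 and 612 bp wide, against list medians of 1181 and 535 bp, and with only peaks of at least median width ASS1 no longer counted for this mark. H3K27ac was called in replicate 1 alone, at chr9:133321126-133322002, which begins 778 bp downstream of the start site, and over the start site of a shorter transcript at chr9:133327167-133327784. In replicate 2, the nearest H3K27ac peak was 133462 bp away. The H3K27ac lists of the replicates differ in size, with 57761 peaks of a median of 1357 bp in replicate 1 and 38639 of 657 bp in replicate 2, and whether this bears on calls made in replicate 1 alone was not tested. Without peak heights or allele information, marks on the same chromosomes cannot be told apart from marks in different cells of the culture.

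Nearly all ASS1 signal came from the main transcript (ENST00000352480), which had 17.4 and 16.8 FPKM, or 90.0% and 95.4% of the gene. The RNA values also list 11 processed pseudogenes of ASS1, whose sequences resemble the mRNA. Of these, 2 were above 0 in either library, and ASS1P12 was the highest, with 0.142 and 0.189 FPKM. Summed over all 11, the pseudogenes had 0.28 and 0.329 FPKM. How reads that fit both the gene and a pseudogene were assigned is not given in the sources used here, so the level of each pseudogene is uncertain.

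FBP1, which removes a phosphate from fructose-1,6-bisphosphate on the way to glucose, carried the same pair of marks without appreciable RNA. It (ENSG00000165140) lies on the minus strand at chr9:97365415-97402531. H3K4me3 peaks over its main start site lay at chr9:97401312-97402316 and chr9:97401303-97402283, the first 1005 bp wide and so under the median of its list (1194 bp). H3K27me3 peaks at chr9:97400085-97402930 and chr9:97400639-97403118 covered 100% of the 2 kb around that start site in both replicates, against 45.7% and 30.6% at ASS1. No H3K27ac peak lay nearer than 32531 bp in replicate 1 or 33274 bp in replicate 2. Further H3K27me3 peaks lay within the gene, and together with those at the start site they covered 32.1% of it in replicate 1 and 11.8% in replicate 2. The lncRNA PCAT7, which overlaps the 3' end of FBP1 on the other strand, had 2.2 and 3.01 FPKM. Whether reads were counted by strand is not given in the sources used here.

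The levels of these 2 genes can be read against others with H3K4me3 and H3K27me3. There were 1126 protein-coding genes with H3K4me3 and H3K27me3 at a start site in both replicates, leaving out those with H3K27ac in both. Their median FPKM was 0.0995. Genes with H3K27ac in a single replicate, as at ASS1, were kept in this class beside genes without any, as FBP1, so its members differ in this mark. In this class, 14.7% of genes reached an FPKM of 1 in each library. ASS1 ranked 9 and FBP1 ranked 830 of 1126 by mean FPKM. With the genes that also had H3K27ac in both replicates the class held 1380 genes, with a median of 0.178, and 24.0% reached that level and 37 (2.68%) were at or above ASS1. Among the 10502 genes with H3K4me3 and H3K27ac, the median was 11.5 and 91.9% reached that level, and 33.6% were at or above ASS1. ASS1 thus had an RNA level in the upper part of the second class and near the top of the first.

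**Figure D3:**
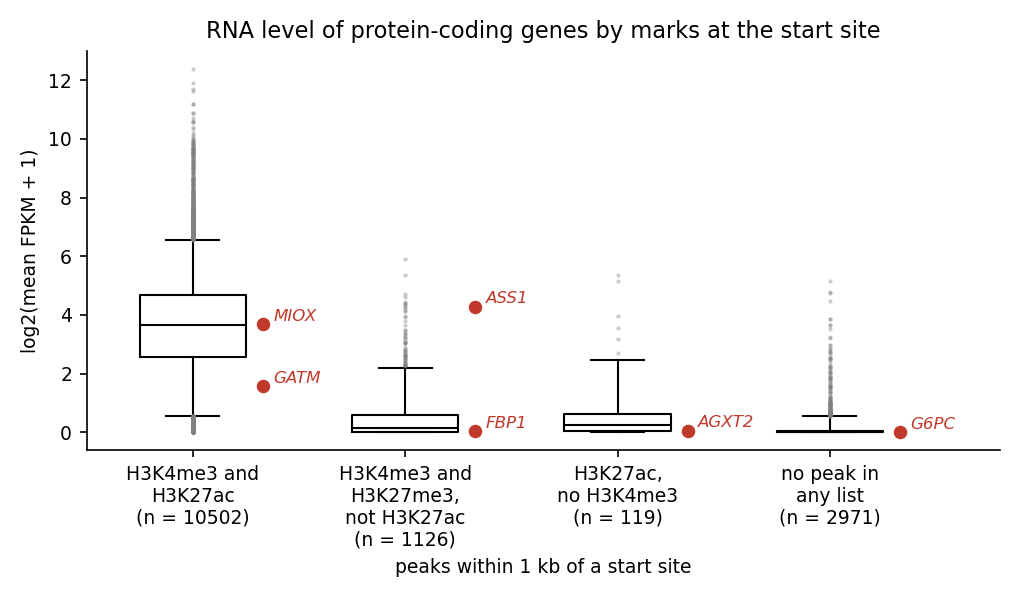
RNA level of protein-coding genes, as log2(mean FPKM + 1), in 4 classes of peaks within 1 kb of a start site, with 6 of the enzyme genes in red. The class labelled as not H3K27ac leaves out genes with H3K27ac in both replicates and keeps those with it in a single replicate, as ASS1. Boxes give the quartiles and median, whiskers the 5th and 95th percentiles, and grey points the genes beyond them. ASS1 lies above the upper whisker of its class and FBP1 in the lower part of the box of the same class.

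The sequence upstream of these start sites was GC-rich in both genes. In the 250 bases before the main start site, G and C made up 78.8% at ASS1 and 72.8% at FBP1, against a median of 63.2% over 19547 protein-coding promoters. The stretches are shown because the H3K4me3 and H3K27me3 peaks of both replicates overlap here, for ASS1 from the plus strand at chr9:133320098-133320347 and for FBP1 from the minus strand at chr9:97401801-97402050 (hg19). The first is intergenic, and the second lies in an intron of longer FBP1 transcripts. At GATM, which had no H3K27me3 at its start sites, G and C also made up 72.8% of the bases upstream. Capitals mark the GC box GGGCGG or its reverse complement CCGCCC, which 59.5% of all promoters hold.
ASS1: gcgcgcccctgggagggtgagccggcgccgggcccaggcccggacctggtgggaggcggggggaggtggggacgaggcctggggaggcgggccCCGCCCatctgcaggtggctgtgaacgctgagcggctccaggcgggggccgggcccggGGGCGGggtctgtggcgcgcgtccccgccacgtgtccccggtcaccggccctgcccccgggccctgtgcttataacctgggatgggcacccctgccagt
FBP1: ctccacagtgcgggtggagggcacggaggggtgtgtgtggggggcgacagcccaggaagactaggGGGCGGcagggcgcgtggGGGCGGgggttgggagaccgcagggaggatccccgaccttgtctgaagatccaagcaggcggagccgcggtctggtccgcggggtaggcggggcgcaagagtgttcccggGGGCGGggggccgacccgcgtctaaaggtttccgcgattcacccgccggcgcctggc

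MIOX, the oxygenase that opens the ring of myo-inositol to give glucuronate, had H3K4me3 and H3K27ac at its start site and no H3K27me3. The gene (ENSG00000100253) lies on the plus strand at chr22:50925213-50929077. H3K4me3 peaks lay at chr22:50924870-50926457 and chr22:50925137-50926108, and H3K27ac peaks at chr22:50922009-50926651 and chr22:50924436-50926033. The nearest H3K27me3 peaks were 156842 and 156830 bp from the main start site. The wide H3K27ac peak of replicate 1 also came within 1 kb of a start site of SBF1, a gene on the other strand with 31.8 and 29.5 FPKM. ADM2, which ends 344 bp before MIOX on the same strand, had 0.0403 and 0.0191 FPKM. All 4 MIOX transcripts were above 0 in both libraries. The main one (ENST00000216075) took 34.3% of the gene's FPKM in library 1 and 51.5% in library 2, so the split among transcripts was less stable than the sum.

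GATM, the mitochondrial amidinotransferase that forms guanidinoacetate, the precursor of creatine, was the lowest of the 3 expressed genes. It (ENSG00000171766) lies on the minus strand at chr15:45653322-45694525, and its start sites fall into separate clusters. At the main start site, H3K4me3 was present in both replicates (chr15:45669739-45671120 and chr15:45669807-45671056), but H3K27ac in replicate 1 alone (chr15:45670250-45670897). H3K27ac in both replicates was found at the far upstream start site (chr15:45693794-45696217 and chr15:45694625-45695752), where SPATA5L1, with 9.15 and 4.18 FPKM, starts 9 bp away on the other strand. A lncRNA without a symbol (ENSG00000275672) starts near the main start site, also on the other strand, and was listed at 0 in both libraries. The count of H3K4me3 with H3K27ac for GATM therefore rests on this shared region. Counting main start sites alone left 2 genes with H3K27ac, AGXT2 and MIOX. The main transcript (ENST00000396659) had 0.881 and 1.68 FPKM, and a transcript with a retained intron (ENST00000558362) had 0.636 and 0.0969. The sum was stable between libraries, but with protein-coding transcripts alone GATM had 0.957 and 1.69 FPKM, below 1 in library 1.

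AGXT2, a mitochondrial aminotransferase, combined H3K27ac with almost no RNA. It (ENSG00000113492) lies on the minus strand at chr5:34998206-35048240. H3K27ac peaks covered the main start site at chr5:35046012-35049070 and chr5:35047333-35049038, and further H3K27ac peaks lay 15893 to 19881 bp downstream of it, inside the gene, in replicate 1 and 16136 to 18195 bp downstream in replicate 2. The nearest H3K4me3 peaks were 116367 and 27417 bp from the start site. The H3K27ac peaks over the start site also overlap the end of PRLR, the prolactin receptor gene, which lies on the same strand 621 bp from the edge of AGXT2 and had 0.00905 and 0.0139 FPKM. H3K27me3 peaks lay elsewhere in AGXT2 and covered 10.7% and 3.42% of it. The 119 protein-coding genes with H3K27ac and no H3K4me3 at a start site had a median FPKM of 0.190, and 18.5% of them reached an FPKM of 1 in each library, so a low level was the usual state in this class.

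**Figure D4:**
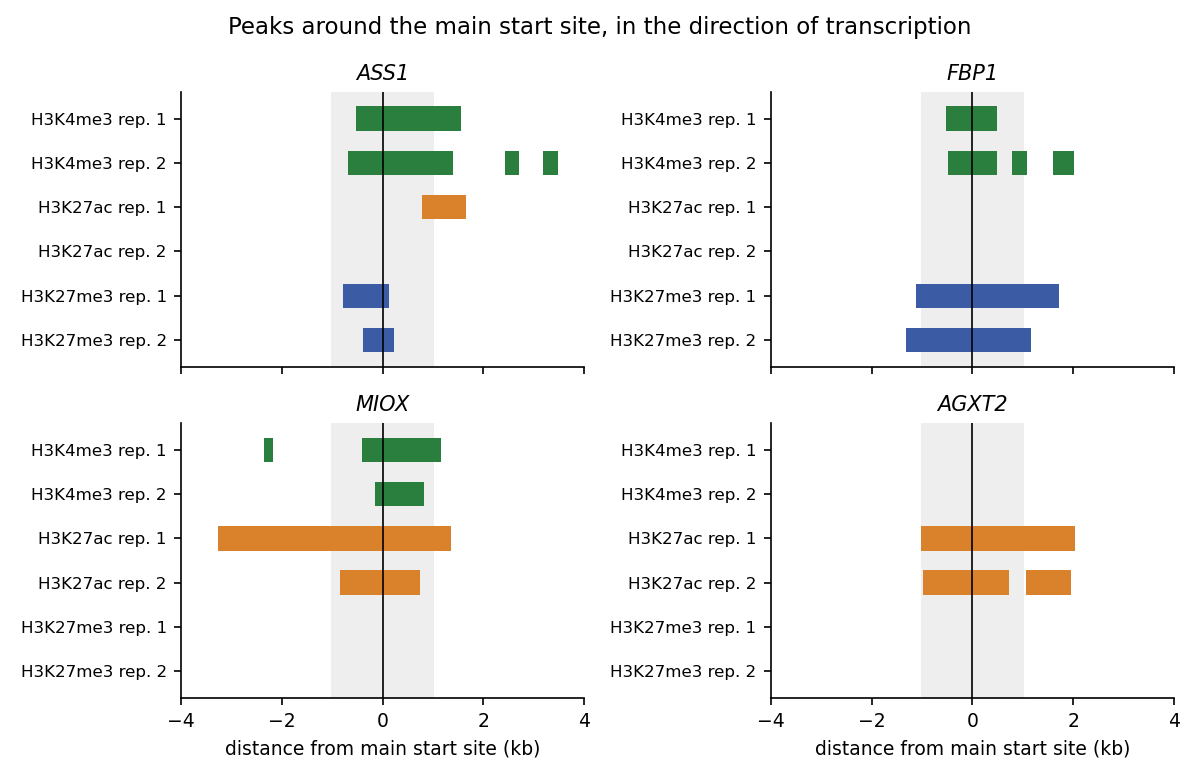
Peaks of the 6 lists within 4 kb of the main start site of ASS1, FBP1, MIOX and AGXT2, drawn in the direction of transcription, with the counted window of 1 kb on either side shaded. At ASS1 the H3K27me3 peaks end shortly after the start site and the H3K4me3 peaks continue into the gene, while at FBP1 the H3K27me3 peaks span the whole window.

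The 3 other genes had no peak of any mark within 1 kb of their main start sites. HAO2 (ENSG00000116882, plus strand, chr1:119911402-119936753), a peroxisomal oxidase, had H3K27me3 inside the gene, where it covered 42.2% in replicate 1 and 9.43% in replicate 2, and no H3K4me3 or H3K27ac peak nearer than 33663 bp to its main start site. Over gene bodies, H3K27me3 in both replicates was found in 4 of the 8 genes (FBP1, AGXT2, HAO2 and ASS1), against 16.1% of protein-coding genes. Longer genes meet more peaks, and none of the gene body shares given here was matched for gene length. By chromosome, the share was 19.9% on chromosome 1 (HAO2), 13.6% on chromosome 5 (AGXT2) and 12.9% on chromosome 9 (FBP1 and ASS1). At ASS1 the H3K27me3 over the gene was only the edge of the peak at the start site, 0.24% and 0.414% of the gene. DDC (ENSG00000132437, minus strand, chr7:50526134-50633102), which decarboxylates L-DOPA, had no H3K27me3 peak, the nearest being 148346 and 173890 bp from its start site. It had H3K27ac about 30 kb inside the gene, at chr7:50601958-50603622 in replicate 1 and at chr7:50602148-50602564 and chr7:50602893-50603662 in replicate 2. A H3K4me3 peak of 259 bp lay there in replicate 1, and DDC-AS1, the antisense lncRNA of this stretch, was listed at 0 in both libraries. DDC is thus among the 3 genes with H3K27ac over the gene body in both replicates (with AGXT2 and MIOX; background 59.4%) and the 5 with H3K4me3 (with FBP1, GATM, MIOX and ASS1; 73.1%). Its H3K4me3 peaks did not coincide between replicates. The DDC signal in RNA, in both libraries, was placed on the transcript with the most upstream start site (ENST00000444124).

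G6PC (ENSG00000131482, plus strand, chr17:41052814-41066455), which releases free glucose in the endoplasmic reticulum, had the fewest marks of the 8 genes. A single H3K4me3 peak of 290 bp lay inside it, in replicate 2. The H3K4me3 list of that replicate holds 73942 peaks of a median of 434 bp, against 29130 of 1194 bp in replicate 1, and whether this bears on H3K4me3 peaks seen in replicate 2 alone, as at an internal start site of DDC, was not tested. The nearest H3K27me3 peaks were 21664 and 22189 bp from its start site, and the nearest H3K27ac peaks 36123 and 63387 bp. Among the 2971 protein-coding genes without a peak at any start site, 69.0% were listed at 0 in both libraries, as G6PC was. An exact 0 was also listed for 75 of the 10502 genes with H3K4me3 and H3K27ac, so it is given here as listed and not as proof of absence.

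CpG content varied with the marks. The ratio of observed to expected CpG in the 250 bases upstream was 1.00 at GATM, 0.85 at FBP1 and 0.63 at ASS1, all of which had H3K4me3, and between 0.00 and 0.25 at HAO2, AGXT2, DDC and G6PC, which had none at their main start sites. MIOX was the exception, with a ratio of 0.23 and H3K4me3 in both replicates. Of 13777 promoters of genes with H3K4me3, 2.95% had a ratio as low as that of MIOX, and of 5770 without H3K4me3 in both replicates 43.1% did. The median ratio was 0.84 and 0.27 in these groups.

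Short motifs were then looked for on both strands of the same windows. The HNF4 element CAAAGTCCA (reverse complement TGGACTTTG) was found at AGXT2 alone, 15 to 23 bases upstream of its main start site, and in 0.271% of all promoters. A TATAAA (reverse complement TTTATA) lay 24 to 29 bases upstream at G6PC and was found in 9.22% of all promoters. The CCAAT box (CCAAT or ATTGG) was found at G6PC and GATM, and in 34.3% of promoters. The GC box shown above was found at FBP1, GATM and ASS1. These are matches of letters, and binding was not measured. The upstream stretch of G6PC is shown because it has a TATA box and a CCAAT box while the gene had no peak at its start site and was listed at 0 in both libraries. It is intergenic and read from the plus strand of hg19 at chr17:41052566-41052813, with matches to the motifs in capitals.
G6PC: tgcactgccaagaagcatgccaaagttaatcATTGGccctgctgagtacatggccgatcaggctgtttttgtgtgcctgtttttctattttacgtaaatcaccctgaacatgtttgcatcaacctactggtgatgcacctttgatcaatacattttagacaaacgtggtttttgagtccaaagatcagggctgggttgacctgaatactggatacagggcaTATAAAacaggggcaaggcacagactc

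Transcription factors of tubule metabolism differed in their own levels. Of 13 on the list, 7 reached an FPKM of 1 in each library, against 58.8% of all protein-coding genes, led by PAX8 (100 and 104 FPKM), a factor of the renal lineage. HNF4A was the 1 factor listed at 0 in both libraries.

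The other genes of each enzyme's pathway were counted in the same way, against the 58.8% of all protein-coding genes given above. Of 10 other genes of glucose release, 6 reached an FPKM of 1 in each library, the level called passing in these lists, and 2 were listed at 0 in both. GPI, which interconverts glucose and fructose phosphates (135 and 143 FPKM), and MDH1, the cytosolic malate dehydrogenase (77.5 and 70.4 FPKM), were highest. PCK1 had 0.0137 and 0.0106 FPKM and was the 1 gene of this list with H3K27me3 at a start site in both replicates. Among paralogs, G6PC3, the widely expressed glucose-6-phosphatase, had 35.5 and 32.5 FPKM, G6PC2 was listed at 0 in both libraries, and FBP2 had 0.241 FPKM in library 1 and was listed at 0 in library 2. Of 7 other genes of creatine, 4 passed and none was listed at 0. The brain-type creatine kinase CKB (87.1 and 84.2 FPKM) and the creatine transporter SLC6A8 (41.2 and 40 FPKM) were highest.

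Of 9 other genes of glyoxylate, hydroxy acids and methylarginines, 4 passed and 3 were listed at 0. These were DAO and the paralogs AGXT and HAO1, which act on glyoxylate and glycolate in liver peroxisomes. DAO was listed at 0 although it had H3K4me3 and H3K27ac at a start site in both replicates. The highest were GRHPR, the glyoxylate reductase (37.5 and 39.5 FPKM), and DDAH1, which degrades methylarginines (24.0 and 26.3 FPKM). In the list of inositol and glucuronate, 11 of 12 genes passed and none was listed at 0. UGDH, which makes UDP-glucuronate (45.2 and 47.2 FPKM), and AKR1A1, which reduces glucuronate (44.2 and 47.4 FPKM), were highest. Of 10 genes of monoamines, 3 passed and 2 were listed at 0. GCH1, the first enzyme of tetrahydrobiopterin synthesis, had 7.68 and 17.5 FPKM, a wide difference between libraries. Of 11 genes of arginine and urea, 6 passed and 2 were listed at 0. ASL, which takes the product of ASS1 to arginine, was highest, with 31.5 and 33.4 FPKM, followed by the mitochondrial arginase ARG2 with 9.15 and 8.73 FPKM. Unlike ASS1, ASL had H3K4me3 and H3K27ac in both replicates and no H3K27me3 at its start sites.

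**Figure D5:**
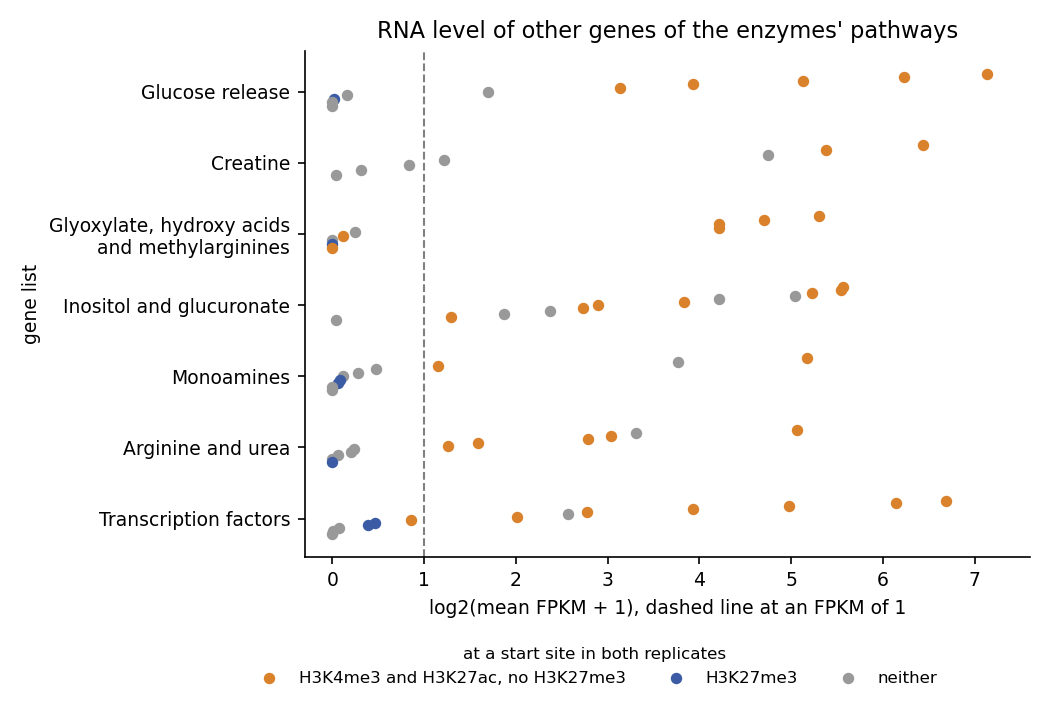
RNA level, as log2(mean FPKM + 1), of the other genes of the enzymes' pathways and of transcription factors, with 1 point per gene in each of 7 lists, coloured by peaks within 1 kb of a start site in both replicates. Genes with H3K27me3 in both replicates (blue) all lie left of the dashed line at an FPKM of 1.

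Markers of the proximal tubule, the labelled origin of the cells, were present in part. Of 13 proximal tubule markers, 4 reached an FPKM of 1 in each library, led by the brush border enzyme GGT1 (64.1 and 58.1 FPKM), and 4 were listed at 0 in both, against 58.8% and 19.6% of all protein-coding genes. Those listed at 0 included the endocytic receptor LRP2 and the organic anion transporters SLC22A6 and SLC22A8. The summed level of the 13 markers was 78.4 and 71.9 FPKM, most of it from GGT1, and their median FPKM was 0.109. Of 5 epithelial markers 4 passed, led by KRT8 (179 and 184 FPKM). Among other lists, 2 of 5 podocyte markers passed, led by SYNPO (14.7 and 16.2 FPKM), and none of 3 markers of the thick ascending limb was above 0. Of 6 markers of the distal convoluted tubule and collecting duct none passed, the highest being ATP6V1B1 (0.524 and 0.327 FPKM), and likewise of 4 endothelial markers, the highest being CDH5 (0 and 0.0404 FPKM). Of 4 leukocyte markers the lysosomal protein CD68 alone passed (42.5 and 36.8 FPKM), with PTPRC and CD3E among those listed at 0. Of 4 fibroblast and pericyte markers COL1A1 alone passed (40.3 and 39.9 FPKM). None of 4 hepatocyte markers passed in both libraries, the highest being F2 (1.19 and 0.759 FPKM). The low levels of 5 of the 8 enzymes thus stood beside proximal tubule markers that were in part listed at 0, and a link between them was not tested.

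Over the 8 samples with values, the protein-coding genes most like ASS1 were ASNS, GLB1L2 and CPD. Likeness was the smallest sum of absolute differences in log2(FPKM + 1) in the 2 libraries and in the share of bases around start sites in the 6 peak lists. The sums were 0.289, 0.368 and 0.374. ASNS, the asparagine synthetase, had 18.6 and 17.6 FPKM. None of the 3 had H3K27me3 at a start site in both replicates, GLB1L2 having it in replicate 2 alone. H3K27me3 covered only 7.44% and 4.97% of the bases around the ASS1 start sites, so lacking it added little to a sum. The measure therefore says little about this mark.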

How the data were processed

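ChIP-seq and RNA-seq of HK2 cells were used, with 2 replicates each. The replicates may come from the same culture, since the labels do not say. Per the labels and the paper's methods, the authors trimmed reads with cutadapt, used Bowtie2 for ChIP-seq alignment (hg19) and MACS2 for peaks, listed per replicate. The deposited lists give positions without scores, and how many reads support any one peak cannot be read from them. The study's supplement lists library depths that differ between replicates, and a far higher share of reads in peaks for its H3K27ac replicate 1 than for replicate 2. Both H3K27me3 replicates have the lowest shares of reads in peaks of all its ChIP-seq libraries, which limits every H3K27me3 call given here. In each mark, the replicate without a number in the labels was called replicate 1. For RNA-seq the authors used HISAT2 and StringTie 1.3.3, and the deposited FPKM, TPM and coverage per transcript follow GENCODE version 27 on GRCh38, although the methods name hg19. Genes were therefore joined by Ensembl identifier, without coordinates. Start sites and genes were those of GENCODE version 44, lifted to GRCh37, and the main start site is that of its canonical transcript. Sequences came from GRCh37. A mark counted when present in both replicates with at least 1 base of overlap. The log scale used a pseudocount of 1. Overlaps were computed with Python 3.11.15 and numpy 2.4.6, checked on simulated peaks, and plotted with matplotlib 3.10.9.

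With 1 condition, no test was made. The members and lists were chosen with earlier results of these data known, and the motifs and the pairing of H3K4me3 with H3K27me3 were chosen after seeing the data. Named genes were the 8 members, their paralogs, their pseudogenes (the highest), neighbours of their peaks, the 2 highest genes of each pathway list, the highest of each marker list and the 3 genes most like ASS1. PCAT7, ADM2, PRLR, HNF4A, DAO, PCK1 and the markers named as listed at 0 were chosen after their values were seen. A few genes taken in by the naming rule are not reported here. Alternatives covered the FPKM level, TPM, the pseudocount, low values, transcript type, window, overlap, peak width, start sites and replicates.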

Additional observations from a re-analysis of the deposited data

How the results depend on the processing

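Of 62 alternatives over 10 results, 54 stayed within the spread between libraries or within 1.5 times the count. With counts this small, most changes by 1 gene fall within that limit, so the number that stayed is a weak measure of stability. No paired analysis was possible because no result came from a test. The median of log2(mean FPKM + 1) over the 8 genes moved from 0.08 to -2.67 with a pseudocount of 0.1, to 0.21 with TPM, and to 3.68 over the 3 genes whose mean FPKM was 0.1 or more, where the other 5 had been left out. Over all protein-coding genes, the same filter moved the median from 2.113 to 3.231. For the 8 genes, leaving out RNA-seq replicates gave 0.042 to 0.126. These are the values of each library on its own, so they could not leave the spread between libraries. With only peaks at least as wide as the median of their list, H3K4me3 over the gene body fell from 5 genes to 3, and H3K27me3 at a start site from 2 genes to 1, since the peak of ASS1 in replicate 1 was narrower than that median. H3K4me3 with H3K27me3, a pairing added after seeing the data, fell from 2 genes to 0 under this choice, because the H3K4me3 peak of FBP1 in replicate 1 was narrower too, and stayed at 2 under the other 6 alternatives. H3K27ac over the gene body rose from 3 genes to 5 with peaks in either replicate, and leaving out a replicate gave 3 to 5, the higher count without replicate 2. The count of genes with an FPKM of at least 1 fell from 3 to 2 with an FPKM of 5 and with protein-coding transcripts alone, in both cases by the loss of GATM. A pair of libraries and peak lists without scores limit the precision of every value, and levels under an FPKM of 0.1 rest on few aligned bases.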
